A study of Mus musculus with 12 samples.

Results

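The genes described here are 33 members of the endoplasmic reticulum (ER) folding machinery and of the unfolded protein response, followed through pancreatic tumors carried by young and old mice. They were picked by gene symbol for their role in ER folding, ER-associated degradation and the PERK, IRE1 and ATF6 arms of the response, with earlier old-against-young results of these libraries known. The counts and medians over the list below are therefore descriptions. All 33 were found among the 47643 genes of the deposited table, and all 33 were among the 16013 genes that passed the filter on low counts.

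Each library came from a piece of pancreatic tumor labelled KPC4662, a line derived from a mouse pancreatic ductal adenocarcinoma, so all tumors share the genotype of a single line. There are 6 libraries labelled Young tumor and 6 labelled Old tumor, named for the age group of the mouse, and poly(A) RNA went into directional libraries. The labels used here give no age in weeks or months, strain, sex, treatment or route of implantation. They do not say whether pieces came from separate mice, and p-values then measure only the spread between pieces, which may be technical.

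Proteins that enter the ER are bound by the chaperone BiP, the product of Hspa5, and by calnexin and calreticulin, while disulfide isomerases join their cysteines. When unfolded protein builds up, the membrane sensors IRE1, PERK and ATF6 signal to the nucleus: IRE1 splices Xbp1 mRNA, PERK slows translation and favours ATF4, and ATF6 is cut to release a transcription factor. Their targets include the chaperones themselves, the machinery that returns misfolded proteins to the cytosol, and, through ATF4 and CHOP, genes of amino acid supply and cell death. Pancreatic acinar cells and plasma cells are known for a high load of secretory protein and a large ER.

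Promoter sequence was looked at because these genes are textbook targets of ATF6, XBP1 and ATF4. The RefSeq promoter table (GRCm38.p6, 250 bases before to 50 bases after each start) held 29 of the 33 members and 32851 windows in all; it has no entry for Hyou1, Manf, Derl1 or Atf6. The ER stress response element, searched on both strands as CCAAT and CCACG with any 9 bases between them, lay in 0.119% of all windows and in those of 8 members. Its compact form ERSE-II, ATTGG and CCACG with any 1 base between them, lay in 0.0365% of all windows and in those of 2 members. The amino acid response element bound by ATF4 with C/EBP factors, TGATGNAA, lay in 3.97% of all windows and in those of 4 members. The XBP1-type element TGACGTGG lay in 0.676% of all windows and in 0 member windows. No 2 of these motifs overlap in a member window. The matches below are written in the direction of the motif, with the fixed bases in capitals, so that the spacing between the parts of each element can be compared.

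Hspa5: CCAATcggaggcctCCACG
Hsp90b1, first match: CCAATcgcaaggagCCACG
Hsp90b1, second match: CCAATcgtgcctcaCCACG
Dnajc3: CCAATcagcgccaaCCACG
Creld2: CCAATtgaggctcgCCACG
Calr: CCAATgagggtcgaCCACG
Canx: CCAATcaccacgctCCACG
Pdia6: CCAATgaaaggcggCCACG
Syvn1: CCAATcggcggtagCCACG
Dnajb11: ATTGGcCCACG
Herpud1, compact element: ATTGGgCCACG
Herpud1, amino acid element: TGATGcAA
Chac1: TGATGcAA
Trib3: TGATGtAA
Asns: TGATGaAA

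The Hspa5 match lies at chr2:34772025-34772043 on the gene's own strand, 65 to 47 bases before the RefSeq start. The 2 Hsp90b1 matches lie at chr10:86705638-86705656 and chr10:86705533-86705551, the second on the opposite strand. Canx has its match at chr11:50325800-50325818 and Creld2 at chr15:88819520-88819538, on the opposite strand. In Herpud1 the compact element is at chr8:94386377-94386387 and the amino acid element at chr8:94386317-94386324, so that window holds both kinds. The other amino acid elements are in Chac1 (chr2:119351049-119351056), Trib3 (chr2:152344039-152344046) and Asns (chr6:7693225-7693232), 3 members of the ATF4 branch. A match describes letters in a window and says nothing of binding in these tumors.

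The upstream 150 bases of 3 members are given for context, with the matched bases in capitals: Canx, the member whose level followed Hspa5 most closely (below); Creld2, the member after Manf and Sec61b in the old-against-young comparison; and Herpud1, with both elements. Each runs 5′ to 3′ on the gene's strand and ends at the base before the RefSeq start. Canx is at chr11:50325674-50325823 (minus strand), Creld2 at chr15:88819496-88819645 (plus strand) and Herpud1 at chr8:94386279-94386428 (plus strand), all in GRCm38.p6.

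Canx: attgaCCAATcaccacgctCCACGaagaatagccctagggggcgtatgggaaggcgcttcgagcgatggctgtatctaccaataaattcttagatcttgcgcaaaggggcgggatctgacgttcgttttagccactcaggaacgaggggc
Creld2: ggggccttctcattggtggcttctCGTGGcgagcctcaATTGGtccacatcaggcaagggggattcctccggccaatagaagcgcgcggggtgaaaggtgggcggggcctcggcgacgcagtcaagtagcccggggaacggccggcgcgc
Herpud1: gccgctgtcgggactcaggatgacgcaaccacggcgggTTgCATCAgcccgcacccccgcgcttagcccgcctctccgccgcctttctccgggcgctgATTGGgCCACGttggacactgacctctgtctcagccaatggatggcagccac

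Depth ran from 17.75M to 24.1M counts per library. On the principal components of all tested genes, Old tumor 1 and Old tumor 4 lay farthest apart on the first, Old tumor 5 lay far out on the second and Young tumor 2 on the third. The second also parted the ages, with young libraries at 9.05 to 31.8 and old libraries at -43.9 to -5.55. The labels call the cell type epithelial, and the epithelial markers Krt8, Krt18, Krt19, Epcam and Cdh1 were all present. Across all genes, 362 differed between the ages at an adjusted p under 0.05 by edgeR's quasi-likelihood test, 127 higher and 235 lower in old tumors. Scaling by total counts gave 152 and 143, and limma on log2(TPM + 1) gave 291 and 48, so the split depends on scaling. Without Young tumor 1 and Young tumor 2 together, edgeR called 0 genes (2699 at an unadjusted p under 0.05).

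The ER genes held 0.489% to 0.600% of the TPM (transcript abundance per length, scaled to a fixed sum) of a library. Their summed TPM was 5312 ± 446 in the young and 5275 ± 385 in the old libraries (SD, n = 6 per age), a gap smaller than either spread. Calr was the highest at a mean of 809.6 TPM over the 12 libraries, followed by Hspa5 at 746, Pdia3 at 675 and Hsp90b1 at 469.8 TPM. The ranges of Calr (721 to 952 TPM), Hspa5 (611 to 970) and Pdia3 (568 to 860) over the 12 libraries overlap. Sec61b, Canx, Pdia6, Atf4 and Manf formed the next group, with means of 305 down to 215 TPM. The sensors were far lower, with Eif2ak3 at 19.6, Ern1 at 16.3 and Atf6 at 10.3 TPM, and the lowest 2 members were Chac1 at 6.95 and Sesn2 at 6.18 TPM.

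Old tumors had less Manf and Sec61b mRNA than young tumors, and no other of the 33 members passed the test. By edgeR's quasi-likelihood test with Benjamini-Hochberg adjustment over all 16013 genes, 2 of 33 members were lower in old tumors, where 1.47% of all genes were, and 0 were higher, where 0.793% were (2.26% in either direction). At an unadjusted p under 0.05 there were 7 members, against 21.1% of all genes. The fitted log2 fold change, old over young, was below 0 for 26 of the 33 members and for 45.8% of all genes. Its median was -0.08 over the members and 0.03 over all genes. On log2(TPM + 1) the member median was 0.04 and that of all genes 0.13, so the sign of the member median flips with the scale. Relative to the all-gene median, 28 members were lower in the edgeR fit and 25 on log2(TPM + 1), and the genes differ in part. In bulk RNA, fewer cells of a type and less RNA per cell cannot be told apart.

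**Figure D1:**
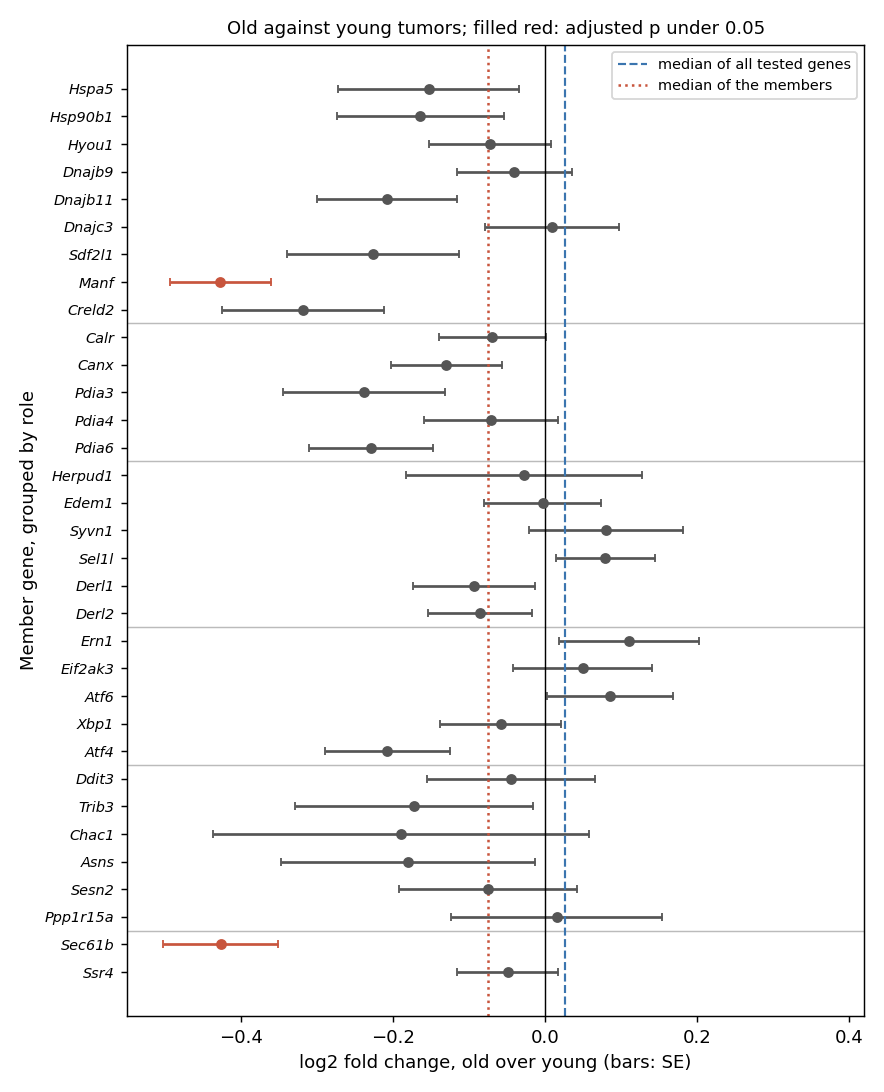
Fitted log2 fold change of each of the 33 genes, old over young, with bars of 1 SE; rows are grouped by role and red marks an adjusted p under 0.05. Only Manf and Sec61b are red, and the dotted member median (-0.08) lies left of the dashed all-gene median (0.03).

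The chaperones and cochaperones come first. Manf encodes a small secreted ER stress protein that binds BiP; its gene (ENSMUSG00000032575) spans chr9:106838312-106891979 on the minus strand in GENCODE of GRCm38. The young libraries had 141, 133, 119, 116, 120 and 119 CPM of Manf (counts relative to the TMM-scaled library size), and the old libraries 97.5, 94.3, 87.1, 85.9, 98.0 and 92.8 CPM. Every old library lies below every young one, which holds for 1.97% of all tested genes (2.97% do not overlap in either direction). The means were 125 ± 9.81 and 92.6 ± 5.13 CPM (SD, n = 6 each), 1.34-fold higher in young tumors, with a log2 fold change of -0.43 (SE 0.066, adjusted p = 0.024, edgeR). The call was lost when Old tumor 2 was left out (adjusted p = 0.0503), when Old tumor 3 was (adjusted p = 0.0526), and without Young tumor 1 and Young tumor 2 together (log2 fold change -0.37, adjusted p = 0.078). It was also lost with a block for replicate number and with an acinar score as covariate (both below). Manf shares 146 exon bases with Dcaf1 on the opposite strand and 14 with Rbm15b on its own. It also shares 166 with 4930524O07Rik on the opposite strand, which had a mean count of only 5.80. The strand setting of the counting is not given.

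Hspa5, the central chaperone, had 1428, 1606, 1136, 1121, 1183 and 976 CPM in young tumors and 981, 1181, 1072, 1025, 1299 and 1142 CPM in old ones. Young tumor 1 and Young tumor 2 are above all other libraries, and the other 4 young libraries lie among the old ones. The log2 fold change was -0.15 (SE 0.12, adjusted p = 0.49, edgeR), and 0.004 without those 2 libraries. Hsp90b1, the ER member of the HSP90 family, gave 855 ± 136 CPM in young and 763 ± 83.9 CPM in old tumors (adjusted p = 0.42, edgeR).

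Creld2, an ER stress-inducible protein with isomerase-like motifs, ran from 49.7 to 72.9 CPM in young tumors (median 52.8) and from 40.4 to 50.3 CPM in old ones (median 47.3). The groups overlap only at their edge, and the log2 fold change of -0.32 (SE 0.11) missed the threshold (adjusted p = 0.11, edgeR). Dnajb11, a J-domain cochaperone of BiP, ran from 102 to 147 CPM in young (median 119) and from 97.2 to 116 CPM in old tumors (median 106). All 6 old libraries lie below the young median for both genes, with an adjusted p of 0.22 for Dnajb11 (edgeR, log2 fold change -0.21). The same held for Derl2, whose log2 fold change was only -0.09 (adjusted p = 0.50, edgeR). How many of all tested genes show this was not counted. Sdf2l1, a partner of Dnajb11, had a log2 fold change of -0.23 (adjusted p = 0.27, edgeR). Hyou1, the exchange factor of BiP, was at -0.07, Dnajb9, a BiP cochaperone that represses IRE1, at -0.04, and Dnajc3, the cochaperone known as p58IPK, at 0.01 on that scale. The sign of Dnajc3 flips with the voom, filter and length settings.

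**Figure D2:**
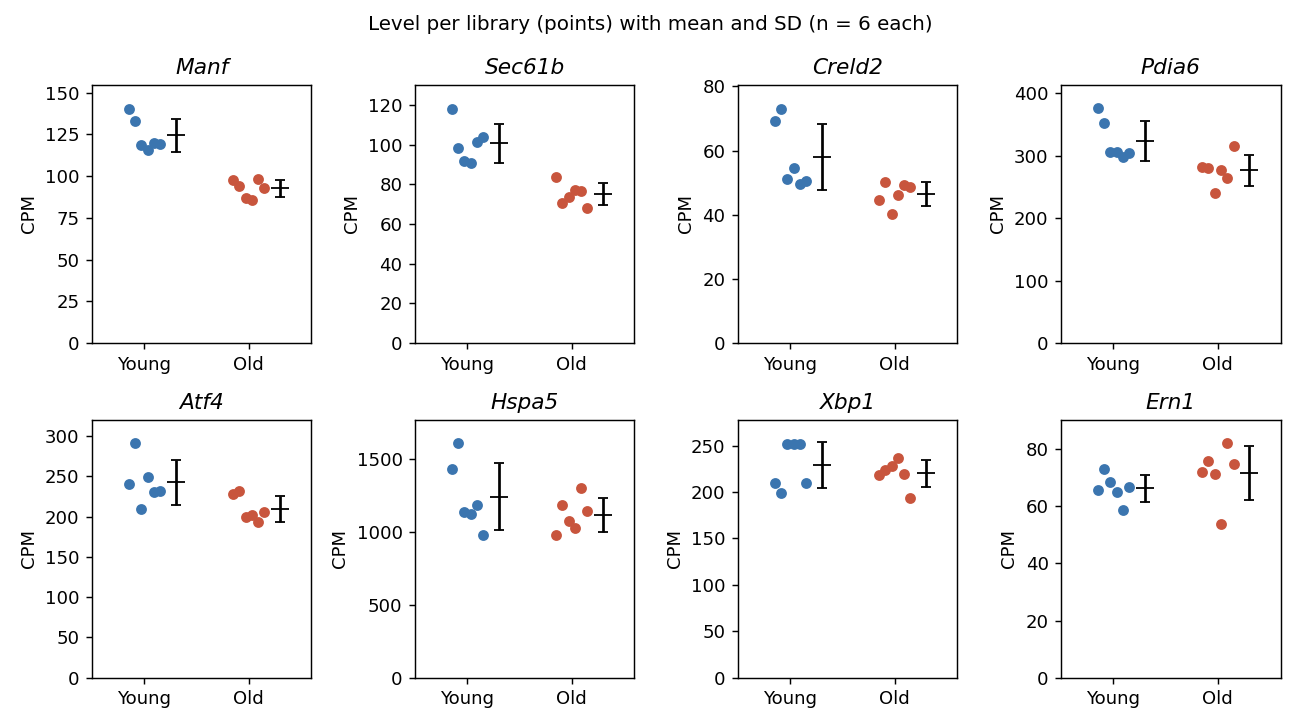
CPM of 8 genes in each library, with the mean and SD of each age (n = 6). Old libraries lie below all young ones for Manf and Sec61b, and the ages overlap for the other 6.

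Of the lectin chaperones and disulfide isomerases, 0 of 5 passed the test, and all 5 fitted log2 fold changes were below 0 (median -0.13). Pdia6, an isomerase that also acts on the sensors, ran from 298 to 376 CPM in young tumors (median 306) and from 239.8 to 315 CPM in old ones (median 279). Its 2 highest young values are again Young tumor 1 and Young tumor 2, and the groups overlap through the highest old library (log2 fold change -0.23, SE 0.082, adjusted p = 0.13, edgeR). Pdia3, the isomerase that works with calnexin and calreticulin, was at -0.24 (SE 0.11, adjusted p = 0.22, edgeR). Canx, which encodes calnexin, was at -0.13, and Pdia4 and Calr, which encodes calreticulin, were both at -0.07. Relative to the median gene, Calr was at 0.04 on log2(TPM + 1), so its sign flips on that scale.

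None of the 6 members of ER-associated degradation passed the test, with log2 fold changes from -0.09 to 0.08 and a median of -0.02. Syvn1, the ubiquitin ligase HRD1, and Sel1l, its adaptor, were both at 0.08. Derl1 and Derl2, membrane proteins of the export channel, were both at -0.09. Edem1, which leads misfolded glycoproteins to degradation, was at 0.00 to 2 decimals, and Herpud1, a stress-induced scaffold of the ligase complex, at -0.03. Herpud1 varied most of these within an age, from 97.7 to 155 CPM in young and from 93.1 to 173 CPM in old tumors.

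Messages of the sensors gave fitted values above 0 and did not pass the test. Ern1, which encodes IRE1, ran from 58.7 to 73.2 CPM in young (median 66.2) and from 53.6 to 82.2 CPM in old tumors (median 73.5), with a log2 fold change of 0.11 (SE 0.092, adjusted p = 0.52, edgeR). Eif2ak3, which encodes PERK, ran from 46.0 to 61.7 CPM (median 49.9) and from 46.5 to 60.3 CPM (median 51.9), at 0.05 on the log2 scale. Atf6 ran from 38.7 to 53.5 CPM (median 45.0) and from 44.0 to 54.4 CPM (median 46.9), at 0.09. The ages overlap for all 3, and all 3 values fall below 0 once each library's trend on gene length is removed.

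The transcription factors lay on the other side of 0. Xbp1 ran from 199.5 to 252 CPM in young tumors (median 231) and from 194 to 237 CPM in old ones (median 221), at -0.06 (adjusted p = 0.71, edgeR). Counts per gene do not tell spliced from unspliced Xbp1, so they do not measure IRE1 activity. Atf4, the factor whose translation PERK favours, ran from 210.03 to 292 CPM in young (median 236) and from 194 to 232 CPM in old tumors (median 204), and all 6 old libraries lie under the young median. Its log2 fold change was -0.21 (SE 0.082, adjusted p = 0.17, edgeR).

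Among the 6 ATF4 and CHOP targets 0 passed the test, 5 fitted values were below 0 and the median was -0.12. Ddit3, which encodes CHOP, ran from 12.1 to 15.9 CPM in young tumors (median 14.4) and from 11.7 to 17.0 CPM in old ones (median 13.4), at -0.04 (adjusted p = 0.85, edgeR). Trib3, a pseudokinase induced by CHOP, was at -0.17, Chac1, which degrades glutathione, at -0.19, and Asns, asparagine synthetase, at -0.18. Sesn2, a stress-induced regulator of growth signalling, was at -0.08, and Ppp1r15a, the phosphatase subunit GADD34 that restores translation, at 0.02. Chac1 had the widest spread of all members within an age, above that of 74.5% of tested genes, and its SE of 0.25 exceeds its fitted change.

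Sec61b, a subunit of the channel through which nascent proteins enter the ER, was the second member that fell. The gene (ENSMUSG00000053317) lies at chr4:47474658-47483242 on the plus strand. The young libraries had 118, 98.5, 91.9, 90.7, 101 and 104 CPM of Sec61b, and the old libraries 83.7, 70.5, 73.5, 77.3, 76.4 and 68.1 CPM. All old values lie below all young values. Means of 101 ± 9.89 and 74.9 ± 5.54 CPM (SD, n = 6 each) make a 1.34-fold higher level in young tumors, with a log2 fold change of -0.43 (SE 0.076, adjusted p = 0.030, edgeR). The call was lost without any 1 of Young tumor 1, Young tumor 5 and Old tumors 2 to 6, with adjusted p values of 0.0505 to 0.075, and on both TPM scales. It was also lost with a block for replicate number, with the acinar covariate (both below), and without Young tumor 1 and Young tumor 2 together. Ssr4, a subunit of the translocon-associated complex, was at -0.05 (adjusted p = 0.71, edgeR).

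Most members varied less within an age than the median tested gene. The comparison was not matched for level, and the tested genes include some far lower in CPM than any member. The within-age SD of log2 CPM lay under the median of all tested genes for 28 of 33 members and in the lowest 25% for 17 of 33. Calr, Sel1l, Manf and Ssr4 were the steadiest, with SDs below those of at least 95% of tested genes. Only Chac1, Asns, Herpud1, Trib3 and Ppp1r15a exceeded the median gene. As a mean over the 9 chaperones, log2 CPM lay 0.22 above the mean of the 12 libraries in Young tumor 1, 0.32 above it in Young tumor 2 and 0.11 above it in Old tumor 5, and between -0.21 and 0.01 of it in the others. The ATF4 and CHOP targets were highest in Young tumor 2 (0.38) and lowest in Old tumor 3 (-0.32).

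**Figure D3:**
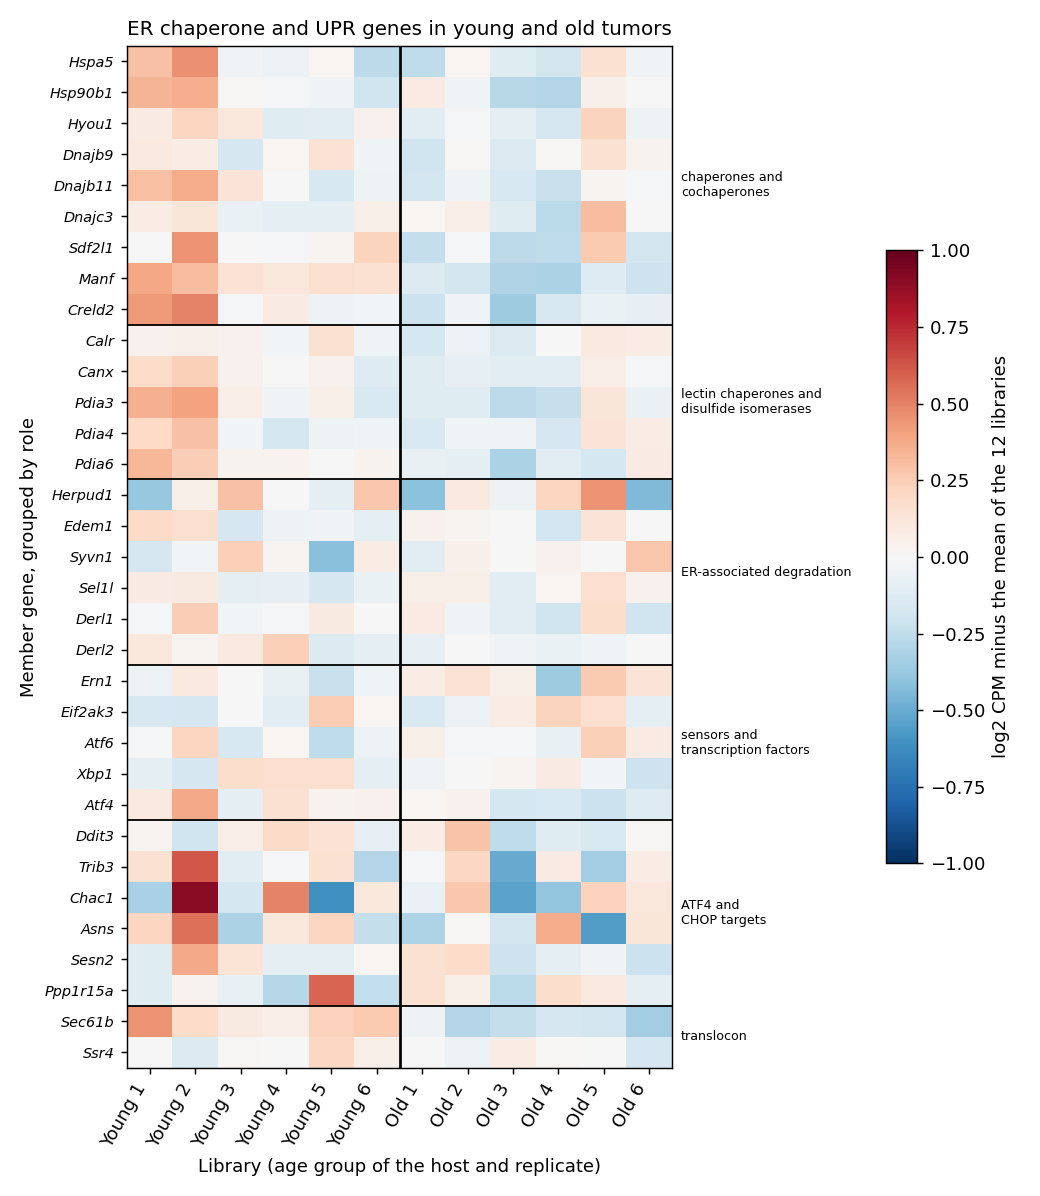
Log2 CPM of each gene minus its mean over the 12 libraries (colour), with genes in rows by role and libraries in columns by age. Young tumor 1 and Young tumor 2 are red through most chaperones and isomerases, while the sensors show no such block.

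Members were set against Hspa5 over the 12 libraries, which is a measure of how they vary together and not the comparison of ages. Of the 32 correlations 26 were above 0, with a median Pearson r of 0.51, against 50.1% above 0 and a median of 0.00 over the other 16012 genes. Permutation p-values adjusted over all 16012 genes passed 0.05 for 0 members and 0.0% of genes, by Pearson's r and by Spearman's rho alike. With 100000 permutations, a lone gene at the smallest possible p would not pass this adjustment. The count of 0 therefore cannot show that members do not vary together. Without adjustment, 12 members had r above 0 and p under 0.05, where 8.48% of all genes did. Canx was the closest (r = 0.94, permutation p = 3e-05, adjusted p = 0.16; rho = 0.91, permutation p = 0.00011, adjusted p = 0.29). Pdia3 followed (r = 0.91, permutation p = 0.00014, adjusted p = 0.17; rho = 0.85, permutation p = 0.00082, adjusted p = 0.74). The third was Pdia4 (r = 0.88, permutation p = 0.00029, adjusted p = 0.17; rho = 0.65, permutation p = 0.025, adjusted p = 0.76). Removing each age's mean left r at 0.96 for Canx, 0.93 for Pdia3 and 0.87 for Pdia4.

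The lowest correlations with Hspa5 were those of Ssr4 (r = -0.36, permutation p = 0.25; rho = -0.29, permutation p = 0.35), Xbp1 (r = -0.33, permutation p = 0.29; rho = -0.23, permutation p = 0.47) and Eif2ak3 (r = -0.29, permutation p = 0.36; rho = -0.26, permutation p = 0.42). Their p-values adjusted over all genes ran from 0.62 to 0.88. Manf was at r = 0.57 and Sec61b at r = 0.33. Young tumor 2 and Young tumor 1 are the libraries farthest from the Hspa5 median. Without both, r was 0.83 for Canx, 0.72 for Pdia3 and 0.64 for Pdia4, and 5 members had r above 0 and an unadjusted permutation p under 0.05, where 3.14% of all genes did. Manf fell to r = 0.05, where it was at 0.70 over the 12 libraries with each age's mean removed. Leaving out the extremes of Hspa5 narrows the range of Hspa5, which can lower r by itself. Members with the stress element or its compact form, 9 beside Hspa5, had r from -0.20 (Syvn1) to 0.94 (Canx) over the 12 libraries, with a median of 0.59. The 19 others in the promoter table had r from -0.36 (Ssr4) to 0.91 (Pdia3), with a median of 0.43. Without Young tumor 1 and Young tumor 2 these medians were 0.47 and 0.21. The ranges overlap widely, and a link between the element and r was not tested.

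**Figure D4:**
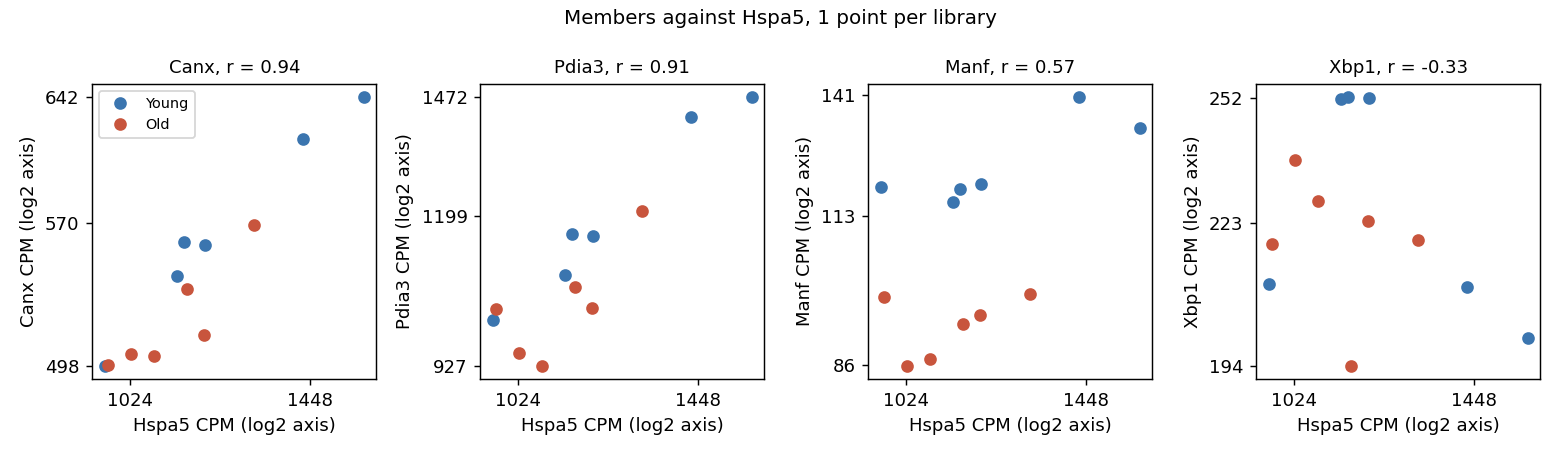
CPM of Canx, Pdia3, Manf and Xbp1 (log2 axes) against CPM of Hspa5, 1 point per library, young in blue and old in red. Canx (r = 0.94) and Pdia3 (r = 0.91) line up with Hspa5, with Young tumor 1 and Young tumor 2 at the upper end, and Xbp1 (r = -0.33) does not.

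Beyond the 33 members, 129 of 130 other listed genes of the same pathways were tested, and 4 were lower and 0 higher in old tumors, where 1.47% and 0.793% of all genes were; Fgf21 was too low to test. Of these, 3 belong to the entry of proteins into the ER, the route of Sec61b: 3 of 28 other translocon and signal sequence genes fell and 0 rose. In that list 20 of 28 fitted log2 fold changes were below 0, with a median of -0.13, beside 45.8% below 0 and a median of 0.03 over all genes. Srp9, a subunit of the signal recognition particle, went from 63.3 ± 4.90 to 47.7 ± 4.70 CPM (log2 fold change -0.41, SE 0.078, adjusted p = 0.030, edgeR). Sec11a, the catalytic subunit of signal peptidase, went from 93.2 ± 7.66 to 72.9 ± 5.16 CPM (-0.35, SE 0.071, adjusted p = 0.033, edgeR). Sec62, which helps proteins through the channel, went from 249 ± 13.7 to 204 ± 15.0 CPM (-0.29, SE 0.066, adjusted p = 0.043, edgeR). In none of the 3 do the ages overlap (SD, n = 6 each). Old lies wholly below young in 1.97% of all tested genes, and the 3 were named for passing the test. The lack of overlap is therefore no separate evidence. None of the 3 passed on either TPM scale, with a block for replicate number or with the acinar covariate. Nor did any of them pass without Young tumor 1 and Young tumor 2. Sec62 also missed the threshold with total-count scaling and without the low-count filter. Leaving out 1 library ended the call in 9 of 12 cases for Srp9 and for Sec11a, all but Young tumors 3 and 6 and Old tumor 1, and in 10 of 12 for Sec62, all but Young tumor 3 and Old tumor 1.

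The other called gene was Cebpb, a transcription factor that pairs with ATF4 and CHOP and also drives inflammatory genes. It went from 103 ± 28.2 CPM in young to 65.0 ± 11.2 CPM in old tumors (SD, n = 6 each; log2 fold change -0.67, SE 0.16, adjusted p = 0.048, edgeR). That call was lost on both TPM scales, with total-count scaling, without the low-count filter and with the length trend removed. It was also lost with a block for replicate number, with the acinar covariate, and without Young tumor 1 and Young tumor 2. Leaving out 1 library ended the call in 10 of 12 cases, all but Young tumor 3 and Old tumor 1. Cebpb was the only one of 25 other signalling genes to pass, with a list median of 0.04. Map3k5, a kinase downstream of IRE1, came next at 0.21 (adjusted p = 0.13, edgeR).

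Other folding enzymes had 0 of 24 called and a median of -0.06, with Sdf2, a paralog of Sdf2l1, at -0.28 (adjusted p = 0.064, edgeR) and Fkbp2, an ER prolyl isomerase, at -0.29 (adjusted p = 0.094, edgeR). Among 20 other degradation genes 0 were called, with a median of 0.00. The smallest p there belonged to Ube2j2, a conjugating enzyme, at -0.23 (adjusted p = 0.094, edgeR), and to Selenos, a selenoprotein of the export complex, at -0.25 (adjusted p = 0.15, edgeR). Of 32 tested other ATF4 targets 0 were called, 24 were below 0 and the median was -0.13. Psph, of serine synthesis, was at -0.37 (adjusted p = 0.087, edgeR) and Eif4ebp1, a brake on translation initiation, at -0.25 (adjusted p = 0.091, edgeR).

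Markers of other cells that could carry ER genes were counted in the same fit. Fibroblast markers were above 0 for 12 of 12 genes with 0 called (median 0.64), and their summed CPM ran from 1541 to 3784 in young and from 1383 to 10305 in old tumors. Plasma cell markers had 1 higher call among 9 tested of 12, Ighm, with a median of 1.15. Fitted values were above 0 for 6 of them and below 0 for 3 (Sdc1, Prdm1 and Fkbp11). The sums over the list were 817 to 1246 CPM in young and 848 to 2206 CPM in old tumors. Sdc1 alone had means of 889 CPM in young and 839 CPM in old tumors. Acinar markers passed the low-count filter for 3 of 16 genes, all 3 below 0 without a call, with sums of 13.2 to 77.4 and 13.6 to 21.1 CPM. Epithelial markers had 0 of 12 called (median -0.15), with sums of 5919 to 10604 and 6019 to 9394 CPM. T and NK cell markers had 1 lower call among 11 tested, Gzma, and all 11 below 0. Endothelial markers were above 0 for 10 of 10 genes with 0 called (median 0.54), with sums of 171 to 256 CPM in young and 156 to 612 CPM in old tumors. Adipocyte markers had 1 higher call among 5 tested of 10, Plin4, with all 5 above 0 (median 1.07) and sums of 41.5 to 82.2 and 41.3 to 549 CPM. No gene was called among 12 macrophage (median 0.04), 9 neutrophil (-0.41), 2 B cell (0.90) and 5 islet markers (0.27) tested. No listed marker was at 0 in all libraries. The acinar covariate was the mean log2 CPM of only the 3 tested acinar markers, Cela1, Amy2a5 and Try5. These were low, with Try5 at means of 1.55 CPM in young and 0.974 CPM in old tumors. With that covariate Manf was at -0.43 and Sec61b at -0.51 on the log2 scale, with adjusted p values of 0.055 and 0.051 (edgeR). The part of the other cell types in the Manf and Sec61b differences was not tested.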

How the data were processed

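RNA with an RNA integrity number above 8 was sequenced as directional poly(A) libraries, per the labels' protocols. Reads were processed with cutadapt 2.3, STAR 2.7.0d, RSEM 1.3.1 and build mm10, per the submitters' processing notes, which name no annotation or strand setting. Expected counts were deposited (85.99% to 88.22% whole at a tolerance of 0), rounded here; the authors also deposited TPM.

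The test was edgeR 4.0.16 (R 4.3.3): TMM, filterByExpr, quasi-likelihood F test, two-sided, Benjamini-Hochberg over all tested genes, no covariates. SE is the log2 fold change over the square root of F. Log2 CPM used a prior count of 2. Correlations used 100000 permutations (20000 with libraries left out), adjusted over all genes instead of over the members as first planned, since the list was chosen. Alternatives used DESeq2 1.42.0 and limma 3.58.1.

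Members and lists were chosen with earlier results of these data known. Named genes are all members, the called genes and 2 smallest p of each other pathway list, and the 3 highest and lowest correlations. Called members and Hspa5 are given in every library; the other members among the 6 smallest p, the sensors, factors and Ddit3 by lowest, median and highest. Selenos is listed under an older symbol. RefSeq promoters are GRCm38.p6; gene positions and exon overlaps (11 members share exon bases with another gene) are from GENCODE of GRCm38. No 2 libraries were duplicates (chi-square per degree of freedom at least 15.17). The scripts were tested on simulated data.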

Additional observations from a re-analysis of the deposited data

Results flagged for a closer look

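In 66 groups of 6 libraries (33 genes by 2 ages), 2 had a library far from the rest, and chance alone flags about 1 group in 20. Hyou1, the exchange factor of BiP, was at 188.5 CPM in Old tumor 5, against 144 to 159 CPM in the other old tumors, a gap of 0.657 of the whole range. Ppp1r15a, which encodes GADD34, was at 41.9 CPM in Young tumor 5, against 23.0 to 28.8 CPM in the other young tumors, a gap of 0.691 of the range.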

How the results depend on the processing

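Genes called (362 in all) numbered 1381 by DESeq2, 977 by voom, 151 without a low-count filter, 111 with the length trend removed, 1 with the acinar covariate, 742 without Old tumors 1 and 5, 0 without Young tumors 1 and 2 (2699 at an unadjusted p under 0.05; this setting was chosen after seeing the data), 1256 at an adjusted p under 0.1 and 1 under 0.01. With 1 library left out they ran from 2 to 1106. Members called (2) were 1 on log2(TPM + 1) and 1 on log2(TPM + 0.1), 0 with the acinar covariate, 0 without Young tumors 1 and 2 and 0 at an adjusted p under 0.01, and 0 to 2 with 1 library left out. The median member change was 0.0397 on log2(TPM + 1) and 0.0403 on log2(TPM + 0.1).

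With the replicate block, 1 gene and 0 members were called, with Manf at -0.43 (adjusted p = 0.057) and Sec61b at -0.42 (adjusted p = 0.057, edgeR). Same-numbered libraries deviated together with correlations of -0.23 to 0.14, and 2 of 6 numbers matched best with themselves. With only 6 numbers this cannot decide whether same-numbered libraries are linked, and the labels state no link.

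Over all settings, adjusted p ran from 1.46e-07 to 0.078 for Manf and from 3.79e-05 to 0.105 for Sec61b, with log2 fold changes of -0.46 to -0.39 and -0.48 to -0.38 when 1 library was left out. The fitted changes of 14 members, Hspa5 and Chac1 among them, reversed sign in at least 1 setting. Without Young tumors 1 and 2, Hspa5 was at 0.00399, Pdia4 at 0.0318, Edem1 at 0.0781, Eif2ak3 at -0.0300 and Ppp1r15a at -0.0186. With the length trend removed, Dnajc3 was at -0.0482, Herpud1 at 0.00179, Sel1l at -0.0385, Ern1 at -0.0047, Eif2ak3 at -0.0255, Atf6 at -0.0420 and Ddit3 at 0.0064. Relative to the median gene, on log2(TPM + 1) and log2(TPM + 0.1), Calr was at 0.0428 and 0.0186, Herpud1 at 0.0930 and 0.0700, Sel1l at -0.0827 and -0.106, and on the first Xbp1 at 0.0037. Dnajc3 was at -0.00186 by voom, -0.000426 without a filter, -0.00186 with the stricter one and -0.0678 without Old tumors 1 and 5, where Ppp1r15a was at -0.0250. Edem1 was at 0.0285 by total counts, 0.0280 by voom and 0.000627 with the acinar covariate, and Chac1 at 0.101 with that covariate. With 1 library left out, sign changed within -0.0458 to 0.0592 for Dnajc3, -0.123 to 0.0425 for Herpud1, -0.0291 to 0.0369 for Edem1, -0.112 to 0.00236 for Ddit3, -0.305 to 0.0114 for Chac1 and -0.0382 to 0.161 for Ppp1r15a. The causes were not tested. The Hspa5 correlations had 0 members past the adjusted threshold in every setting run. With 100000 permutations, or 20000 with libraries left out, a lone gene could not pass after adjustment over all genes. These counts therefore cannot show how stable the correlations are.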

Other observations

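Heat shock genes of the cytosol and mitochondria, listed for comparison with the ER chaperones, had 1 of 13 called. Hspe1, the cochaperonin of the mitochondrial matrix, went from 130.1 ± 21.8 CPM in young to 86.2 ± 9.56 CPM in old tumors (SD, n = 6 each; log2 fold change -0.59, SE 0.11, adjusted p = 0.030, edgeR), and 11 of the 13 fitted values were below 0 with a median of -0.14. The call was lost in 6 of 12 cases with 1 library left out, those without Young tumor 1, Young tumor 4 and Old tumors 2 to 5. It was also lost with the replicate block, the acinar covariate, the length trend removed, and without Young tumor 1 and Young tumor 2 together. Its partner Hspd1 was at -0.37 (adjusted p = 0.11, edgeR). Hypoxia genes had 0 of 12 called (median -0.07), and immediate early genes 0 of 14 (median 0.02).

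Over all 16012 genes, the level most like that of Hspa5 was that of Hspa4, a cytosolic member of the HSP110 family (r = 0.96 over 12 libraries, 0.96 with each age's mean removed and 0.93 without Young tumor 1 and Young tumor 2). Canx was next, followed by Pdp1, a mitochondrial phosphatase (r = 0.93), and Pdia3 stood at rank 6. These ranks are a description chosen after the values were seen, and the points share libraries and scaling.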
